A study of Mus musculus with 2 samples.

Results

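The miR-15 and miR-16 family, with miR-195 and miR-497, is made in mice by 3 pairs of neighbouring microRNA genes, Mir15a with Mir16-1, Mir15b with Mir16-2, and Mir195a with Mir497. These 6 genes were taken by their GENCODE M21 symbols from the 2202 microRNA genes of the deposited count tables, and all 6 had counts in both libraries. The RNA came from left cerebral cortex, taken at 36 days of age from males of the strain B6CASTF1/J (F1 hybrids between C57BL/6J and CAST), and microRNA-sized molecules were sequenced. The libraries form 1 group of 2, from animals numbered 3 (replicate 1) and 4 (replicate 2), with no treatment, genotype or time to compare. Both carry the same donor identifier in the labels, which number the animals and the biological replicates separately. All tests below compare these 2 libraries and cover counting error only.

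A microRNA guides its silencing complex to messenger RNAs mainly through its seed, bases 2 to 8 counted from the 5′ end, so genes with a common seed can act on the same targets. The miR-15/16 family restrains the cell cycle and cell survival, with cyclins and the anti-apoptotic gene Bcl2 among its best known targets, and the human MIR15A and MIR16-1 genes lie in a region often deleted in chronic lymphocytic leukaemia. In the mouse heart the family takes part in the withdrawal of cardiomyocytes from the cell cycle after birth. In the developing mouse neocortex miR-15b has been described as acting on the balance between proliferation and neurogenesis.

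The mature 5p sequences of the 6 genes, with that of the X-linked relative miR-322, are shown because the common seed defines the family and because the bases after it decide whether a read can be placed at 1 gene. All 6 genes matched the RefSeq table (GRCm38.p6), and capitals mark the seed.
mmu-miR-15a-5p: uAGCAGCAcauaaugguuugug
mmu-miR-15b-5p: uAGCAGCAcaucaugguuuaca
mmu-miR-16-5p: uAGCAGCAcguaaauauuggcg
mmu-miR-195a-5p: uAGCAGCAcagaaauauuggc
mmu-miR-497a-5p: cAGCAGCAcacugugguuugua
mmu-miR-322-5p: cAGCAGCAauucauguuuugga

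All 6 genes carry the same seed, and 11 of the 1058 microRNA genes with a mature sequence in the table do. The 5 others were Mir322, Mir195b, Mir6342, Mir6353 and Mir6419. Counted from the 5′ end, miR-16-5p and miR-195a-5p differed at 2 of 21 positions compared (G10A and U11G, with the base of miR-16-5p first). miR-15a-5p and miR-15b-5p differed at 4 of 22 positions (A12C, G20A, U21C and G22A, with the base of miR-15a-5p first). The most distant members, miR-16-5p and miR-497a-5p, differed at 11 of 22. Mir16-1 and Mir16-2 make the same miR-16-5p, so a read of that sequence fits both genes equally well.

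The other strand of each hairpin gives a 3p microRNA, and the family does not extend to it. The 6 listed 3p sequences had 6 different seeds, none of which occurred in another gene of the table. They are shown because the 3p arms of Mir16-1 and Mir16-2, unlike their 5p arms, tell the genes apart.
mmu-miR-15a-3p: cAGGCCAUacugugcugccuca
mmu-miR-15b-3p: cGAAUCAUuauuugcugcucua
mmu-miR-16-1-3p: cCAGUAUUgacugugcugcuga
mmu-miR-16-2-3p: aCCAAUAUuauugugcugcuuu
mmu-miR-195a-3p: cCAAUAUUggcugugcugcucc
mmu-miR-497a-3p: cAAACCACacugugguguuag

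The hairpins of both Mir16 genes are given with their mature arms in capitals, to show which part is common. Mir16-1 is at chr14:61631880-61631972 on the minus strand and Mir16-2 at chr3:69009902-69009996 on the plus strand (mm10).
Mir16-1: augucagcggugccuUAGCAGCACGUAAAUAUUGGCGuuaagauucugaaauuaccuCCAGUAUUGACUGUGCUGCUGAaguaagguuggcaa
Mir16-2: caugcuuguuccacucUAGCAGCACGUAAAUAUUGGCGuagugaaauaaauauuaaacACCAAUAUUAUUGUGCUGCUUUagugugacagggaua

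The longest stretch common to both hairpins was 23 bases, positions 16 to 38 of Mir16-1 and 17 to 39 of Mir16-2, which holds the whole 5p arm. Of the windows of 22 bases, 2 of 72 in Mir16-1 and 2 of 74 in Mir16-2 occurred in another microRNA hairpin of the annotation. No window of Mir15a, Mir15b or Mir195a did, among 2201 other hairpins searched on both strands. The closest match of Mir195a was Mir195b with 16 bases in a row, and that between Mir15a and Mir15b was 12 bases. A search of the whole genome was not made.

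**Figure D1:**
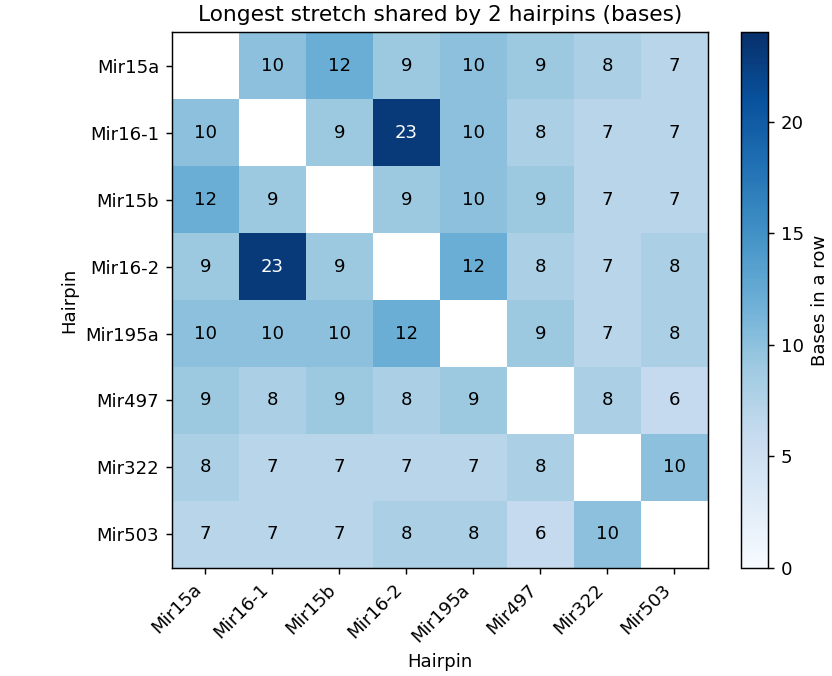
Longest run of identical bases (number in each cell, and colour scale in bases) common to 2 hairpins, in the same orientation, for the 6 cluster genes, Mir322 and Mir503. Mir16-1 and Mir16-2 have 23 bases in common, against 12 or fewer for every other pair drawn.

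The Mir15a and Mir16-1 hairpins lie 54 bases apart on chromosome 14 (61632027 to 61632110 for Mir15a, minus strand), within the long non-coding RNA gene Dleu2 on the same strand. No exon of the 15 annotated Dleu2 transcripts overlapped Mir15a, while 13 bases of the Mir16-1 hairpin overlapped an exon of 1 of them. Mir15b (69009772 to 69009835, plus strand) and Mir16-2 lie 66 bases apart on chromosome 3, within Smc4, which encodes a condensin subunit. No exon of the 11 Smc4 transcripts overlapped either hairpin. Mir497 (70234717 to 70234800) and Mir195a (70235042 to 70235135) lie 241 bases apart on the plus strand of chromosome 11, and no gene other than a microRNA gene overlapped them in GENCODE M21.

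The whole Mir497 hairpin of 84 bases lies inside Mir497b (70234692 to 70234816), a microRNA gene annotated on the opposite strand. Both are shown, with mature sequences in capitals, because the strand decides which of them a read counts for.
Mir497: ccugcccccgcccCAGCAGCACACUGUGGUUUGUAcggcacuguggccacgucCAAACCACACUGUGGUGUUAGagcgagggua
Mir497b: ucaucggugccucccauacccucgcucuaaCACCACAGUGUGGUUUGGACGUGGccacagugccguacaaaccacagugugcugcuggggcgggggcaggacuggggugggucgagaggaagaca

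Mir497 had 3697 counts on its own strand in replicate 1 and 2762 in replicate 2, and Mir497b had 0 in each library. All reads assigned there thus ran in the direction of Mir497. In the column of counts without regard to strand both genes stood at 0, since such reads are ambiguous, and the counts on a gene's own strand were used throughout. The other 5 genes had the same counts in both columns, and none of the 6 had a count on its opposite strand.

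Replicate 1 held 11886775 reads and replicate 2 held 11534730, of which 36.0% and 34.8% were assigned to microRNA genes on their own strand (4273791 and 4010274 counts). Levels are in CPM, own-strand counts scaled to 1000000 over all microRNA genes of a library. Taking 3 counts as the most that a count of 0 allows, the limit for a gene without reads was 0.702 CPM (replicate 1) and 0.748 CPM (replicate 2). Reads that mapped to several places, 42.8% (replicate 1) and 39.9% (replicate 2) of the total, are in no gene's count. Markers listed to check the tissue were present, with 6 of 9 neuronal microRNA genes at 10 CPM or more in both libraries, with sums of 85535 CPM (replicate 1) and 53459 CPM (replicate 2) over the list. Most of the sum was Mir132, at 54937 and 30022 CPM in replicates 1 and 2, and not all of the markers went with it, since Mir138-1 stood at 5292 and 7354 CPM. None of the Mir124a genes reached 10 CPM in either library. Mir124a-1 stood at 2.34 and 3.74 CPM in replicates 1 and 2, Mir124a-3 at 4.68 and 0.997 CPM, and Mir124a-2 had no counts. Reads that fit more than 1 Mir124a gene would be missing from these values, which hold for assigned reads only.

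The family made up a small share of the assigned reads. Reads of miR-16-5p that fit both Mir16 genes are not in it. The 6 genes together took 0.367% of the microRNA counts in replicate 1 (15668 counts, exact 95% binomial interval 0.361 to 0.372) and 0.210% in replicate 2 (8417 counts, 0.205 to 0.214), or 2882 ± 1108 CPM (SD, n = 2). All 6 exceeded 10 CPM in both libraries, as did 300 of the 2202 genes. By mean CPM they ranked from 103 (Mir195a) to 217 (Mir16-2) among all genes.

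Most of the family's assigned counts came from the chromosome 11 cluster. The other clusters each hold a Mir16 gene, whose common miR-16-5p reads are missing, so these shares hold for assigned reads only. Mir195a and Mir497 made up 61.4% of the 6 genes' counts in replicate 1 (exact 95% interval 60.7 to 62.2) and 52.6% in replicate 2 (51.5 to 53.6). The Dleu2 cluster gave 25.7% in replicate 1 and 33.8% in replicate 2. The Smc4 cluster gave 12.9% and 13.6% in replicates 1 and 2.

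Mir195a had 5926 counts in replicate 1 and 1663 in replicate 2, or 1387 and 415 CPM (901 ± 687 CPM, SD, n = 2). Its neighbour Mir497 stood at 865 and 689 CPM in replicates 1 and 2 (777 ± 125 CPM). Both genes were higher in replicate 1. Mir195a was the highest of the 6 genes in replicate 1, and in replicate 2 it stood behind Mir497 and Mir15a.

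Mir15a, within Dleu2, had 2436 and 1711 counts in replicates 1 and 2, or 570.0 and 427 CPM (498 ± 101 CPM). Mir16-1 had 1591 and 1135 counts, or 372 and 283 CPM (328 ± 63.1 CPM, SD, n = 2). Each was higher in replicate 1, by a like amount.

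Mir15b, within Smc4, had 1578 and 984 counts in replicates 1 and 2, or 369 and 245 CPM (307 ± 87.6 CPM). Mir16-2 had 440 and 162 counts, or 103 and 40.4 CPM (71.7 ± 44.2 CPM, SD, n = 2). Mir16-2 was the lowest of the 6 genes in both libraries.

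Ordered by mean CPM the genes ran Mir195a, Mir497, Mir15a, Mir16-1, Mir15b and Mir16-2. The ranges over the libraries overlapped between Mir195a and Mir497, between Mir195a and Mir15a, and between Mir16-1 and Mir15b. They did not overlap between the other neighbours in this order, Mir497 and Mir15a, Mir15a and Mir16-1, and Mir15b and Mir16-2. A microRNA read covers a mature molecule rather than a stretch of a long transcript, but per 100 bases of hairpin the short Mir15b stood at 480.2 CPM against 352 CPM for Mir16-1, and these exchanged places. Counts of Mir16-1 and Mir16-2 are uncertain, since reads of miR-16-5p that fit both genes are missing from them. Their places in this order thus hold for assigned reads only.

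**Figure D2:**
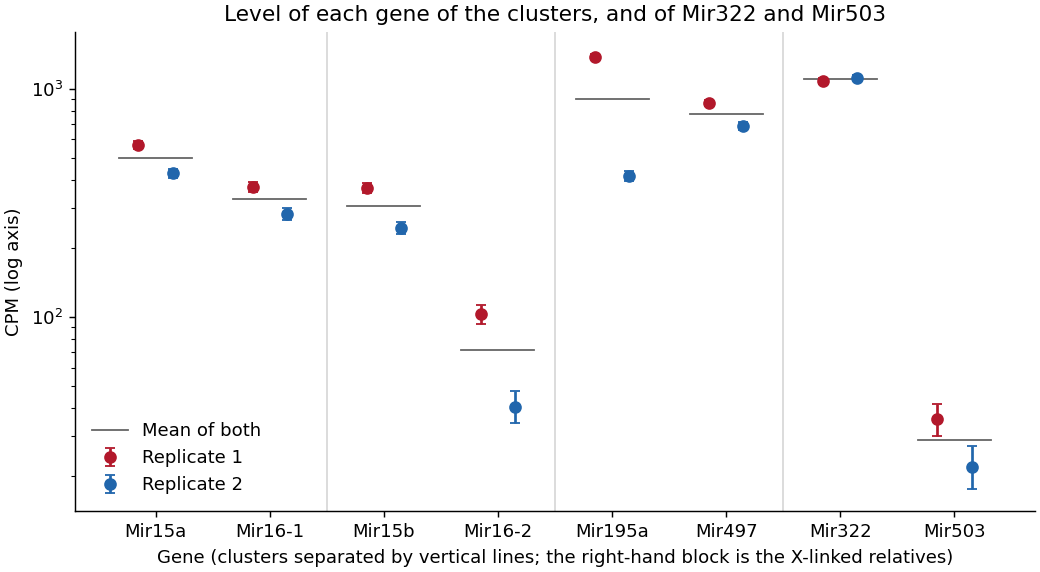
CPM (log axis) of the 6 cluster genes and of Mir322 and Mir503, with a point for each library, its exact 95% Poisson interval for counting error, and a line at the mean. All 6 cluster genes lie higher in replicate 1, Mir195a at 1387 CPM (replicate 1) against 415 CPM (replicate 2), while Mir322 lies at 1082 and 1121 CPM.

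All 6 genes were called higher in replicate 1 by a two-sided exact binomial test, with library sizes scaled by TMM (Benjamini-Hochberg adjusted p under 0.05 over the 516 genes with 10 or more counts). Of the genes tested, 30.4% were called higher in replicate 1 and 27.5% lower, so a call by itself was common. Among the 309 genes with 100 or more counts, as all 6 have, these shares were 41.4% and 38.5%. The median log2 ratio of replicate 1 over replicate 2 was 0.46 for the 6 genes and 0.036 over all genes tested. In absolute size the median over the 309 genes was 0.46, with Mir195a, Mir16-2 and Mir15b above it and Mir15a, Mir16-1 and Mir497 below it.

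Mir195a had the largest difference among the 6. Its log2 ratio was 1.70 (exact 95% interval 1.62 to 1.78), a 3.25-fold higher level in replicate 1, with an adjusted p in the binomial test at the lowest value kept, 1e-300. Of the 309 genes with 100 or more counts, 20 had a larger ratio in absolute size. Mir16-2 followed with a log2 ratio of 1.31 (1.05 to 1.58, adjusted p = 7.2e-25, exact binomial test), and 27 genes had a larger one.

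The other 4 genes differed by less. The log2 ratio was 0.55 for Mir15b (0.43 to 0.67), 0.38 for Mir15a (0.29 to 0.47), 0.36 for Mir16-1 (0.24 to 0.47) and 0.29 for Mir497 (0.22 to 0.36). Their adjusted p in the exact binomial test ran from 9.8e-21 for Mir15b to 6.5e-10 for Mir16-1. Between 134 and 210 of the 309 genes had a larger absolute ratio than these 4.

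**Figure D3:**
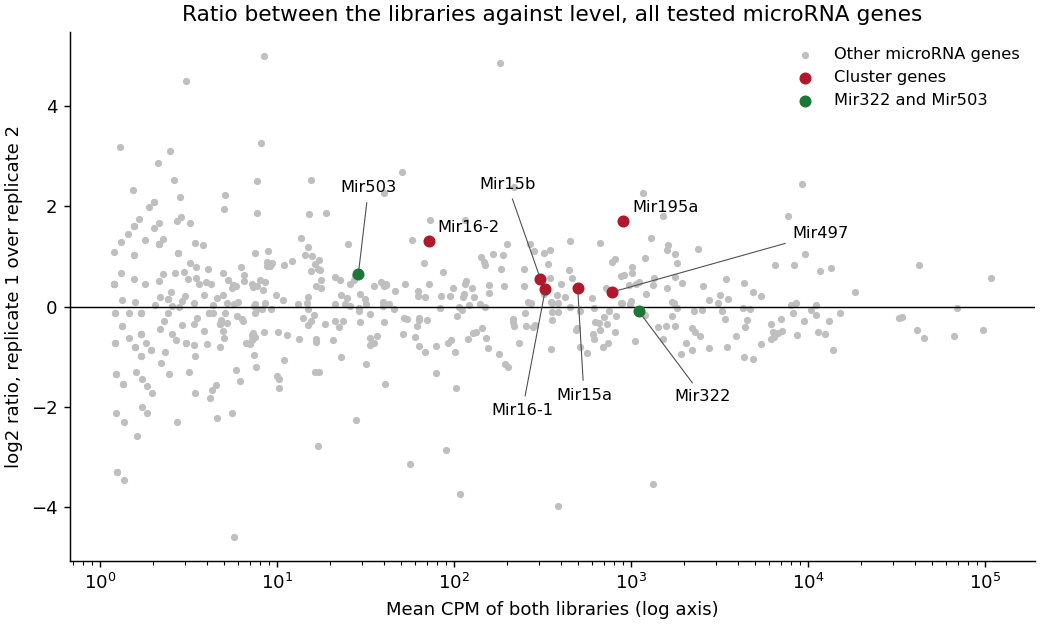
log2 ratio of replicate 1 over replicate 2 (vertical axis) against mean CPM (horizontal log axis) for 511 of the 516 microRNA genes tested; 5 genes with no counts in 1 library are not drawn. The 6 cluster genes (red) lie above 0, with Mir195a at 1.70 and Mir16-2 at 1.31, and Mir322 (green) lies at -0.091. Counts of Mir16-1 and Mir16-2 leave out reads that fit both genes.

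Markers of other cells also differed between the libraries, in counts that leave out reads mapped to several places. A value of 0 among them thus does not show that a microRNA was absent. The red-cell list had sums of 83.5 CPM (replicate 1) and 794 CPM (replicate 2). Of this list 3 genes were analysed and 2 were detected, meaning at 10 CPM or more in both libraries. Most of the sum was Mir451a, at 47.0 and 726 CPM in replicates 1 and 2. Mir144 stood at 9.83 and 45.6 CPM. The other detected gene, Mir486, did not go with them, at 26.7 and 22.9 CPM. Mural-cell markers summed to 5178 and 7691 CPM in replicates 1 and 2, with 2 of 2 detected. They went opposite ways, with Mir143 at 4892 and 7484 CPM and Mir145a at 286 and 208 CPM. Oligodendrocyte markers summed to 5098 and 3543 CPM, with 2 of 3 detected. Leukocyte markers summed to 1455 and 1207 CPM, with 3 of 4 detected. Most of this sum was Mir150, at 1334 and 1091 CPM. Mir142 stood at 40.5 and 39.1 CPM, and Mir155 went the other way, at 64.8 and 75.8 CPM. Endothelial Mir126a stood at 11394 and 10799 CPM. Striated muscle markers came to 27.8 and 18.5 CPM, with 1 of 5 detected and Mir1a-1 and Mir133a-2 at 0, and the liver marker Mir122 to 47.5 and 79.8 CPM. The part of these cells in the differences was not tested. In tissue samples, fewer cells of a type and less RNA per cell cannot be told apart.

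The genes of a cluster are often cut from 1 primary transcript, and the ratio of neighbours within a library needs no scaling between libraries. The Dleu2 pair kept its ratio, with Mir15a taking 60.5% of the pair's counts in replicate 1 (exact 95% interval 59.0 to 62.0) and 60.1% in replicate 2 (58.3 to 61.9). The log2 odds ratio of replicate 1 over replicate 2 was 0.022 (-0.12 to 0.17), with an adjusted p of 1 by Fisher's exact test over 148 neighbouring pairs of microRNA genes, of which 48.0% were called. Of the 98 other pairs with counts at both genes in both libraries, 97 had a larger absolute value and Mir496a/Mir377, named after its value was seen, a smaller one. The median over all 99 was 0.83, and all 71 of the called pairs were among these 99.

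The pairs on chromosomes 11 and 3 did not keep theirs. Mir195a took 61.6% of its pair's counts in replicate 1 (60.6 to 62.6) and 37.6% in replicate 2 (36.2 to 39.0), so that there were 1.60 reads of Mir195a for each read of Mir497 in replicate 1 and 0.602 in replicate 2. The log2 odds ratio was 1.41 (1.31 to 1.52), with an adjusted p of 3.0e-154 by Fisher's exact test, and 22 of the 98 other pairs had a larger absolute value.

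Mir15b took 78.2% of its pair's counts in replicate 1 (76.3 to 80.0) and 85.9% in replicate 2 (83.7 to 87.8). The log2 odds ratio was -0.76 (-1.05 to -0.47), with an adjusted p of 2.6e-07 by Fisher's exact test, and 51 of the 98 other pairs had a larger absolute value. In assigned reads, the ratio of the miR-16 gene to its neighbour thus moved between the libraries on chromosome 3. On chromosome 14 it moved by less than counting error could show. Of the counts at both Mir16 genes, Mir16-2 gave 21.7% in replicate 1 (19.9 to 23.5) and 12.5% in replicate 2 (10.7 to 14.4). These shares rest on reads that could be placed at 1 of the 2 genes.

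**Figure D4:**
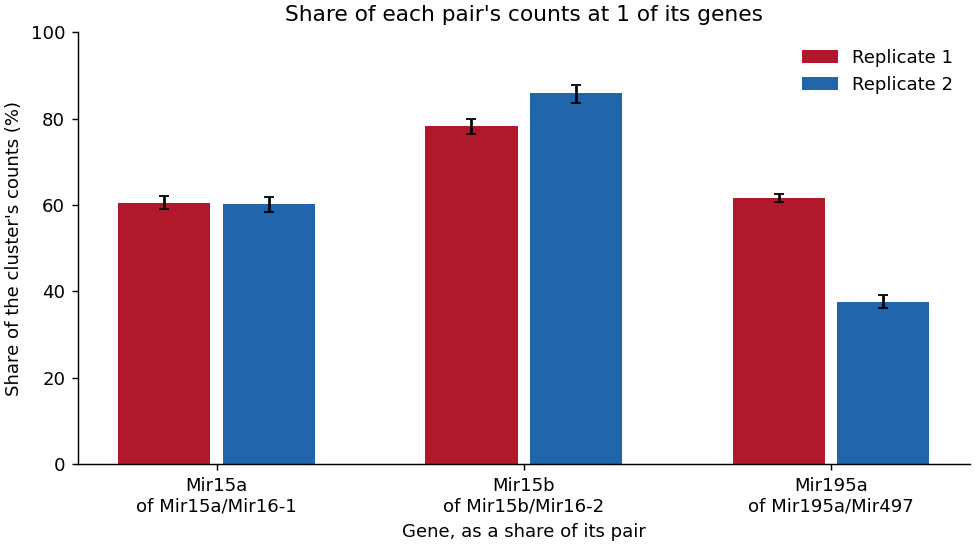
Share of a pair's own-strand counts (vertical axis, percent, from 0) taken by Mir15a, Mir15b and Mir195a, with a bar for each library and exact 95% binomial intervals for counting error. Mir15a took 60.5% in replicate 1 and 60.1% in replicate 2, and Mir195a took 61.6% and 37.6%. Counts of Mir16-1 and Mir16-2, the partners of Mir15a and Mir15b, leave out reads that fit both Mir16 genes.

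Outside the 3 clusters, the seed was carried in quantity by Mir322, the mouse counterpart of human miR-424. It had 4626 counts in replicate 1 and 4496 in replicate 2, or 1082 and 1121 CPM (1102 ± 27.4 CPM, SD, n = 2). Its mean was above that of each of the 6 genes, though in replicate 1 Mir195a stood higher. Mir322 was called lower in replicate 1, with a log2 ratio of -0.091 (-0.15 to -0.031, adjusted p = 0.0054, exact binomial test). That call was lost with total counts (-0.051, adjusted p = 0.15), and the sign turned with totals taken without the most abundant gene (0.022, adjusted p = 0.56).

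The 6 genes gave 77.2% of the counts at all 11 genes with the seed in replicate 1 (76.6 to 77.8) and 65.2% in replicate 2 (64.4 to 66.0). Mir322 gave the rest, 22.8% and 34.8% in replicates 1 and 2. Mir195b, Mir6342, Mir6353 and Mir6419 had 0 counts in both libraries.

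Of the 8 relatives listed beside the clusters, 2 had enough counts to test, with 1 called higher and 1 lower in replicate 1. Mir503, next to Mir322 on the X chromosome, is counted in the extended family although its 5p seed differs at the last base, and was called higher. It had 152 counts in replicate 1 and 88 in replicate 2, or 35.6 and 21.9 CPM, with a log2 ratio of 0.66 (0.27 to 1.05, adjusted p = 0.0013, exact binomial test). Mir1907, which is not among the 11 genes with the seed, had 0 and 2 counts in replicates 1 and 2, and was not tested.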

How the data were processed

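The authors deposited 1 table per library with whole-number read counts per microRNA gene, not normalized. Per the accompanying deposited text files, the genome was mm10, with GENCODE M21 as annotation. Not given in the sources used here are the aligner, the counter, trimming and molecular identifiers. Headers are missing. The 3 count columns were read, from their values, as counts without regard to strand, on the gene's own strand and on the opposite strand. Unmapped, multi-mapped (42.8% of reads in replicate 1 and 39.9% in replicate 2) and unassigned reads (4.56% and 4.39%) stayed out of totals and tests. A gene's count pools the 5p and 3p arms of its hairpin. Each of the 2202 gene identifiers was found in GENCODE M21.

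TMM factors (edgeR 4.0.16, R 4.3.3) came from genes with 10 or more counts in both libraries together, which were compared by a two-sided exact binomial test with Benjamini-Hochberg adjustment. Neighbouring pairs (same strand, starts within 10 kb, 10 or more counts per library) were compared with Fisher's exact test, adjusted over all pairs. No count model was fitted, since 1 group leaves no contrast. Named were the 6 genes, their opposite-strand partner, the other genes with the seed, the listed relatives Mir503 and Mir1907, and overlapping host genes. The 6 genes, the lists and the tests were chosen with earlier results of these data known. Alternatives were DESeq2 1.42.0 size factors, other totals, count columns and minimum counts, and each library alone. Scripts were tested on simulated data and ran in Python 3.11.15 with SciPy 1.17.1, NumPy 2.4.6, Matplotlib 3.10.9 and pandas 2.3.3. Intervals cover counting error only.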

Additional observations from a re-analysis of the deposited data

Results flagged for a closer look

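Entries of the tables that the comparisons do not use held counts above the limit set by 0 counts. Reads mapped to several places came to 5091406 in replicate 1 and 4604314 in replicate 2, and the deposited tables do not assign them to genes. Opposite-strand counts at Mir497b came to 3697 in replicate 1 and 2762 in replicate 2, the same numbers as the own-strand counts of Mir497, which the comparisons do use, so that column adds no further signal there.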

How the results depend on the processing

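The call of all 6 genes as higher in replicate 1 held under each of the 7 alternative scalings, filters and count columns, except that Mir497 has no counts without regard to strand and could not be tested there. The log2 ratios ranged over the alternatives from 1.66 to 1.81 for Mir195a, 1.27 to 1.42 for Mir16-2, 0.51 to 0.66 for Mir15b, 0.34 to 0.49 for Mir15a, 0.32 to 0.47 for Mir16-1 and 0.25 to 0.40 for Mir497. Totals without the most abundant gene moved every log2 ratio by 0.11. Mir322 was no longer called with total counts (-0.051), counts without regard to strand (-0.060) or all reads as library size (-0.0022), and its sign turned without the most abundant gene (0.022). Its mean level was 1188 CPM in counts without regard to strand, against 0 for Mir497. With CPM taken over all reads of a table, the mean levels were 177 for Mir15a, 116 for Mir16-1, 109 for Mir15b and 25.5 for Mir16-2. They were 321 for Mir195a and 275 for Mir497. The family's share was then 0.102%, and the shares of the clusters were 0.0293% for Mir15a/Mir16-1, 0.0135% for Mir15b/Mir16-2 and 0.0597% for Mir195a/Mir497. These follow from the larger denominator. The calls on the neighbouring pairs held where they could be computed, and the Mir195a/Mir497 pair has no value in counts without regard to strand. At this depth Mir1907, with 0 and 2 counts in replicates 1 and 2, was not tested.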

Other observations

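The related X-linked pair gives a further set of values for neighbouring genes. Mir503 and Mir322 had 152 and 4626 counts in replicate 1, and 88 and 4496 in replicate 2. The log2 odds ratio of Mir503 to Mir322, replicate 1 over replicate 2, was 0.75, with an adjusted p of 0.00027 by Fisher's exact test. Of the 148 pairs tested, 48.0% were called. The median absolute log2 odds ratio was 0.83 over the 99 pairs with counts at both genes in both libraries. All 71 of the called pairs were among these 99.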
